A study of Mus musculus with 4 samples.

Results

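Cd44 and 8 genes of hyaluronan metabolism were followed in 2 clonal lines of mouse cells. The labels describe both as progenitor lines of interstitial cells of Cajal (ICC), which set the pace of contraction in gut muscle. The 9 genes, of 23358 gene rows in each table, were taken by name: the receptor Cd44, the synthases Has1, Has2 and Has3, the hyaluronidases Hyal1 and Hyal2, and Vcan, Tnfaip6 and Ptx3, which encode proteins of hyaluronan-rich matrix. All 9 had a row and all 9 passed the filter on low counts.

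The line 2xSCS2F10 came from the gastric tunica muscularis of C57BL/6J mice and grew at 37 °C in NeuroCult neural stem cell medium with 5% chick embryo extract. For 2xSCS70 that tissue was taken from H-2Kb-tsA58 mice, whose transgene has the H-2Kb promoter, inducible by interferon, driving an SV40 large T antigen that is temperature-sensitive. It grew at 39.5 °C with no interferon gamma. Each line is 1 clone and was sequenced as 2 libraries of polyadenylated RNA. No chick embryo extract is listed for 2xSCS70. Line, strain, transgene, temperature and the medium as listed thus changed together and cannot be told apart. The labels do not say whether the libraries of a line came from separate cultures, so the spread that p-values measure may be technical.

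Hyaluronan is a long unsulfated glycosaminoglycan that the Has enzymes spin out of the plasma membrane from UDP-glucuronic acid and UDP-N-acetylglucosamine. Hyal2 cuts it at the cell surface and Hyal1 degrades the fragments in lysosomes. Cd44 is its main cell-surface receptor and is also expressed by the progenitors of interstitial cells of Cajal. Versican, the product of Vcan, binds hyaluronan and fills the space between cells, while TSG-6, the product of Tnfaip6, and pentraxin 3, the product of Ptx3, crosslink hyaluronan through the heavy chains of inter-alpha-inhibitor.

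RefSeq promoter entries (build GRCm38.p6, which is mm10) matched 7 of the 9 genes, all but Has2 and Has3. The 250 bases before the start are shown for Cd44 and Vcan, the only 2 of the 9 genes that passed the test between the lines, and for Tnfaip6, the only one of the 7 entries with a match to either motif searched. The motifs were GGANTTTCC, an NF-kB type site, and TGANTCA, an AP-1 type site, on both strands. Capitals mark the match. Cd44 lies on the minus strand, and its window is chr2:102901666-102901915. Vcan lies on the minus strand, and its window is chr13:89742513-89742762. Tnfaip6 lies on the plus strand, and its window is chr2:52037863-52038112.
Cd44: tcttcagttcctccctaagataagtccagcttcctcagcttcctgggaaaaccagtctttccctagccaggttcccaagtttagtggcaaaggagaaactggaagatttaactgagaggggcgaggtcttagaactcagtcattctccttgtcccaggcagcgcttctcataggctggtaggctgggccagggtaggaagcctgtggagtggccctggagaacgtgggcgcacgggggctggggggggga
Vcan: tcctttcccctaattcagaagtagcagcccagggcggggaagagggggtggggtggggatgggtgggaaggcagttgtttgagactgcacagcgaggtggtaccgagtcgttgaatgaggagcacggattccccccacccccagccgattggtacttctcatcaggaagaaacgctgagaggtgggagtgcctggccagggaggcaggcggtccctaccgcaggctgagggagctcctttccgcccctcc
Tnfaip6: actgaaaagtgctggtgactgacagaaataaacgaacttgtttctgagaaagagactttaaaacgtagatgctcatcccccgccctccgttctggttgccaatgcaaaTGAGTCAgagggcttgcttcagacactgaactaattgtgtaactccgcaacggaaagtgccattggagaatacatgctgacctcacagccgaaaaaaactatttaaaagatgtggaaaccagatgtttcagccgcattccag

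The Tnfaip6 match, TGAGTCA, begins 142 bases before the start. Of 32851 RefSeq promoter windows of the same length, 2217 (6.75%) held the AP-1 type letters and 350 (1.07%) the NF-kB type letters. The Cd44 window held 5 CpG dinucleotides at 56.4% GC, the Vcan window 10 at 62.4% and the Tnfaip6 window 8 at 44.4%, beside medians of 6 and 52.4% over all windows.

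Per library, gene counts summed to 40319972 (replicate 1) and 45098902 (replicate 2) in 2xSCS2F10, and to 48971264 and 44737008 in 2xSCS70, and values below keep this order. The 2xSCS2F10 libraries stood further apart: 12.4% of tested genes differed over 2-fold between them, against 2.72% between the 2xSCS70 libraries. Of the markers of interstitial cells of Cajal, Kit had no counts in 3 libraries and 1 fragment in the other. Ano1 had 29.8 and 18.4 CPM (counts scaled to the TMM-adjusted size of the library) in 2xSCS2F10 and 2.29 and 2.55 CPM in 2xSCS70. Etv1 went the other way without passing, with 2 and 14 counts against 30 and 38 (log2 1.65, edgeR adjusted p = 0.16). Of the progenitor markers, Cd34 was 3.83-fold higher in 2xSCS70 (edgeR, adjusted p = 0.012), Igf1r was 1.48-fold lower (edgeR, adjusted p = 0.0174) and Insr did not pass. All 7 mesothelial markers listed and 7 of 8 smooth muscle markers were lower in 2xSCS70. Their summed levels were 3586 and 4181 CPM against 117 and 106 CPM for mesothelium, and 5282 and 9363 CPM against 842 and 779 CPM for smooth muscle. Of the 8 leukocyte markers 5 were tested, and 2 were higher in 2xSCS70: Lyz2 by 11.1-fold, from 6 counts in each library to 72 and 108 (edgeR, adjusted p = 0.00661), and Cd68 by 2.08-fold (edgeR, adjusted p = 0.0407). Their summed levels lay between 6.73 and 10.8 CPM in the 4 libraries, Emr1 was at 0 in all, Ptprc was at 0 in 3 and Itgam had 1 fragment in 1 library. Of the 5 endothelial markers, with sums between 4.15 and 9.60 CPM, 3 were tested. Cdh5 had 0 counts in 2xSCS2F10 and 20 and 28 in 2xSCS70 (edgeR, adjusted p = 0.0145), and Tek was 6.13-fold lower (edgeR, adjusted p = 0.00939).

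Of the 9 genes, 1 was higher in 2xSCS70 (Cd44), 1 was lower (Vcan) and 7 did not pass the test. Over all 14496 tested genes, 18.8% were higher and 21.8% lower by edgeR's quasi-likelihood test at an adjusted p under 0.05, so that the share of the 9 genes called in either direction was not above the background. The median log2 difference, 2xSCS70 minus 2xSCS2F10, was 0.12 for the 9 genes and 0.02 for all tested genes. In CPM the libraries of the lines overlapped for Has3, Hyal1 and Tnfaip6, and did not for the other 6 genes. On RPKM, which scales reads to coding length and library depth, only Hyal1 and Ptx3 overlapped. The share of all tested genes without overlap was not computed, so no excess is read from these counts. The size of the difference ranged from a log2 value of -6.90 for Vcan to 1.13 for Cd44.

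**Figure D1:**
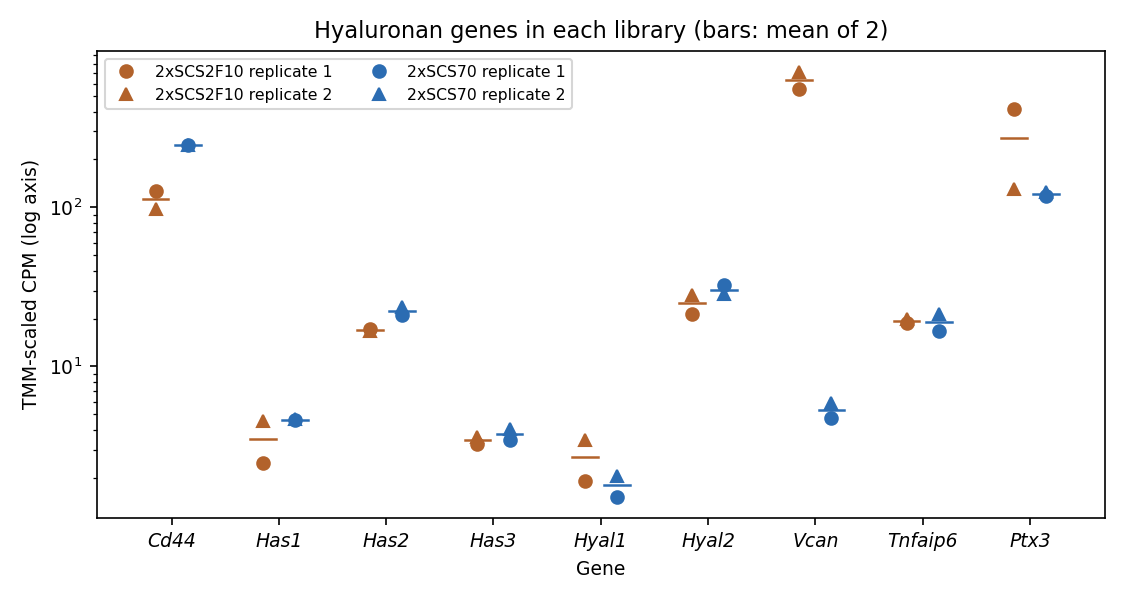
TMM-scaled CPM (log axis) of the 9 genes in each of the 4 libraries, with line by colour, replicate by marker and a bar at the mean of 2. Vcan stood at 556 and 709 CPM in 2xSCS2F10 and at 4.72 and 5.92 CPM in 2xSCS70, whereas Cd44 was at 246 and 245 CPM in 2xSCS70 against 127 and 97.8 CPM.

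The receptor gene Cd44 (chr2:102811142-102901665, mm10) was 2.19-fold higher in 2xSCS70. It held 4932 and 3726 counts in 2xSCS2F10 and 13584 and 11934 counts in 2xSCS70. Scaled, these were 127 and 97.8 CPM against 246 and 245 CPM, with means of 112 ± 20.4 and 246 ± 0.834 CPM (SD, n = 2 libraries each, as in every mean below). Both 2xSCS70 libraries stood above both 2xSCS2F10 libraries, and nearly all of the spread lay in 2xSCS2F10. The log2 fold change was 1.13 with an SE of 0.16 (edgeR, adjusted p = 0.0069). Among tested genes 1985 had a higher log2 fold change. Per length, Cd44 stood at 17.3 and 11.2 RPKM in 2xSCS2F10, with a mean above 73.5% of tested genes, and at 38.2 and 34.3 RPKM in 2xSCS70, above 89.5%. Gene counts add up all splice forms of Cd44, which were not analysed here. When either 2xSCS70 library was left out, the log2 fold change stayed at 1.13 but the call was lost. The spread then came from the 2xSCS2F10 pair alone, and most calls over all tested genes were lost too. The log2 fold change was 1.32 without 2xSCS2F10 replicate 1 and 0.95 without replicate 2. There the call held, with the spread taken from the 2xSCS70 pair alone.

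**Figure D2:**
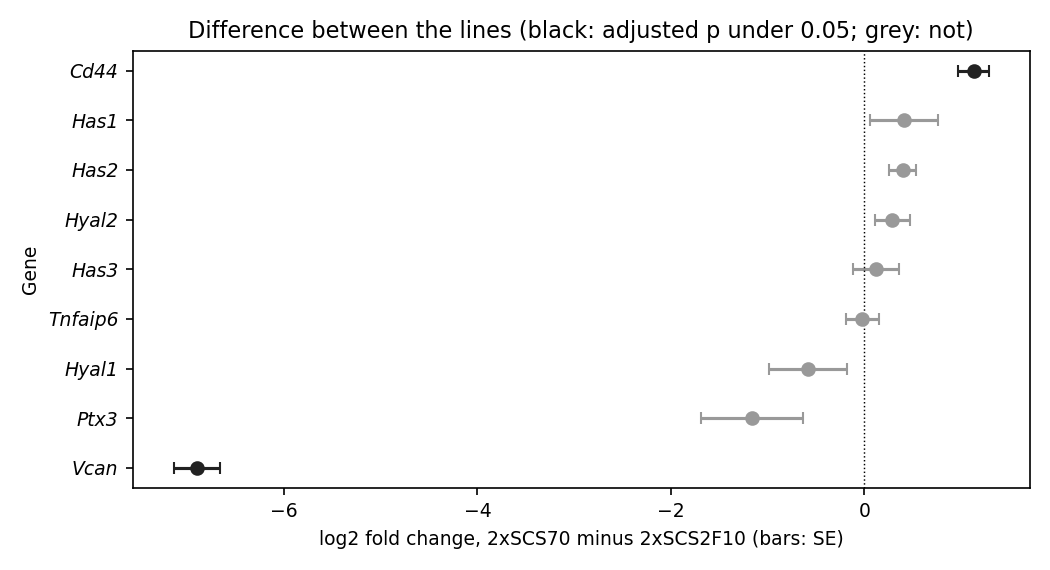
Log2 fold change, 2xSCS70 minus 2xSCS2F10, of each of the 9 genes (points) with its SE (bars), black where the edgeR adjusted p was under 0.05 and grey where not. Vcan at -6.90 and Cd44 at 1.13 are the 2 black points.

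None of the 3 synthase genes passed the test. Has2, the most abundant of them, makes most hyaluronan in many mesenchymal cells. It stood at 17.3 and 16.6 CPM in 2xSCS2F10, compared with 21.2 and 23.5 CPM in 2xSCS70, so the lines did not overlap. The log2 difference was 0.40 with an SE of 0.14 (edgeR, adjusted p = 0.0779), between means of 17.0 ± 0.477 and 22.3 ± 1.67 CPM. The log2 difference was 0.41 without 2xSCS2F10 replicate 1, 0.36 without its replicate 2, 0.47 without 2xSCS70 replicate 1 and 0.32 without its replicate 2. Has2 did not pass with the replicate number as a block (edgeR adjusted p = 0.141) or with DESeq2 (adjusted p = 0.124). The counts of Has2 (chr15:56665627-56694546) were 674 and 634 against 1166 and 1144.

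Has2as, an RNA transcribed from the strand opposite Has2 (chr15:56689944-56694460, within the Has2 locus), was looked at after its values were seen. It held 22 and 18 counts in 2xSCS2F10 and 72 and 62 counts in 2xSCS70. Its log2 fold change was 1.31 with an SE of 0.34, a 2.48-fold higher level in 2xSCS70 (edgeR, adjusted p = 0.035). The kit named in the labels' protocols does not mark strand, so reads of Has2 and Has2as cannot be told apart where they overlap. Counts of the Has2as row may thus include Has2 reads. The call was lost when either 2xSCS70 library was left out, with the replicate number as a block (edgeR adjusted p = 0.0728) and with DESeq2 (0.0652).

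Has1 and Has3 were scarce. Has1 (chr17:17843326-17855188) stood at 2.47 and 4.51 CPM in 2xSCS2F10 and at 4.61 and 4.64 CPM in 2xSCS70. Its 2xSCS2F10 replicate 1 was the low library: the exact 95% counting interval was 1.82 to 3.27 CPM, against 3.61 to 5.57 CPM in replicate 2. The log2 difference of 0.41 (SE 0.35, edgeR adjusted p = 0.384) was 0.90 without 2xSCS2F10 replicate 2 and 0.02 without replicate 1. Has3 (chr8:106870242-106882902) gave 3.24 and 3.62 CPM in 2xSCS2F10, compared with 3.45 and 4.03 CPM in 2xSCS70. Its lines overlapped, with a log2 difference of 0.12 (SE 0.24, edgeR adjusted p = 0.702).

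The make-up of the synthase family, taken per length, was alike in the 2xSCS70 libraries and spread more in the 2xSCS2F10 libraries. Has2 made up 70.3% and 58.6% of the summed RPKM of the 3 genes in 2xSCS2F10 and 64.1% and 65.6% in 2xSCS70, with means of 64.4 ± 8.25% and 64.9 ± 1.05%. Has1 made up 20.3% and 32.2% against 28.3% and 26.3%, and Has3 at most 9.43% in any library. The summed RPKM of the family was 4.48 and 4.32 in 2xSCS2F10 and 6.81 and 6.67 in 2xSCS70. Scaled by TMM instead, the sums were 5.81 and 6.69 against 7.77 and 8.44 CPM per kilobase, which kept the lines apart.

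**Figure D3:**
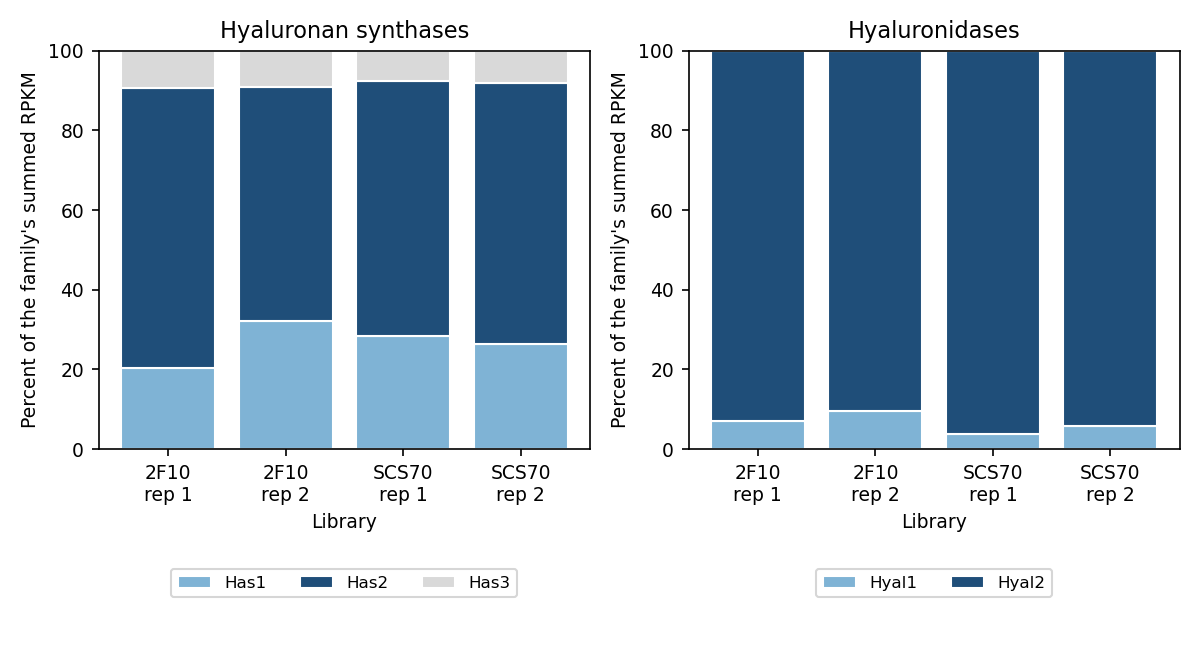
Stacked bars from 0 to 100% give the share of each synthase gene (left) and each hyaluronidase gene (right) in its family's summed RPKM, 1 bar per library. Has2 took 58.6% to 70.3% of the synthase sum and Hyal2 took 90.5% to 96.1% of the Hyal1 and Hyal2 sum.

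Neither hyaluronidase gene passed the test. Hyal2 (chr9:107569163-107572778), which encodes the surface enzyme, stood at 21.5 and 28.2 CPM in 2xSCS2F10 and at 32.3 and 28.4 CPM in 2xSCS70. The second library of each line was nearly level, and the log2 difference was 0.29 with an SE of 0.18 (edgeR, adjusted p = 0.256). It was 0.49 without 2xSCS2F10 replicate 2 and 0.09 without replicate 1. Hyal1 (chr9:107576952-107580133), which encodes the lysosomal enzyme and lies next to Hyal2, had only 37 and 66 fragments in 2xSCS2F10 and 42 and 50 in 2xSCS70. Its levels were 1.90 and 3.46 CPM against 1.52 and 2.05 CPM, and the lines overlapped. The log2 difference was -0.58 with an SE of 0.40 (edgeR, adjusted p = 0.285). It was -0.97 without 2xSCS2F10 replicate 1 and -0.09 without replicate 2. Hyal2 made up 93.0% and 90.5% of the summed RPKM of the pair in 2xSCS2F10, and 96.1% and 94.2% in 2xSCS70.

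The largest difference among the 9 genes was that of Vcan (chr13:89655310-89742512), which encodes the large chondroitin sulfate proteoglycan versican. Vcan held 21652 and 27034 counts in 2xSCS2F10 and 260 and 288 counts in 2xSCS70. Its levels were 556 and 709 CPM, a mean of 633 ± 108, against 4.72 and 5.92 CPM, a mean of 5.32 ± 0.85. The highest 2xSCS70 library lay far below the lowest 2xSCS2F10 library. Vcan was 119-fold lower in 2xSCS70, with a log2 fold change of -6.90 and an SE of 0.24 (edgeR, adjusted p = 0.000347), and 223 tested genes had a lower log2 fold change. Its mean RPKM went from above 87.3% of tested genes (29.2 and 31.2 RPKM) to above 14.9% (0.281 and 0.319 RPKM). The call held in all 14 alternative analyses. The mesothelial and smooth muscle marker sums given above moved in the same direction, and their part in the result was not tested. In these bulk samples fewer cells of a type and less RNA per cell cannot be told apart.

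The genes of the 2 hyaluronan-crosslinking proteins did not pass the test. Tnfaip6 (chr2:52038113-52056681) stood at 18.8 and 20.0 CPM in 2xSCS2F10 and at 16.8 and 21.5 CPM in 2xSCS70. The 2xSCS70 libraries enclosed the 2xSCS2F10 libraries, and the log2 difference was -0.02 with an SE of 0.17 (edgeR, adjusted p = 0.936). With upper quartile scaling the sign turned, at 0.07. Ptx3 (chr3:66219887-66225806) had 16122 and 4980 counts, or 414 and 131 CPM, in 2xSCS2F10, and 6494 and 6104 counts, or 118 and 125 CPM, in 2xSCS70. The 2xSCS2F10 libraries differed 3.17-fold, with replicate 1 far above the other 3 libraries and replicate 2 close to 2xSCS70. The log2 difference was -1.16 with an SE of 0.53 (edgeR, adjusted p = 0.139), and DESeq2 put it past the threshold (adjusted p = 0.034). Without 2xSCS2F10 replicate 1 it was -0.12, and without replicate 2 it was -1.77. The difference of Ptx3 thus came almost wholly from 1 library. Veph1 spans the Ptx3 locus and had 2.14 to 3.41 CPM in the 4 libraries.

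**Figure D4:**
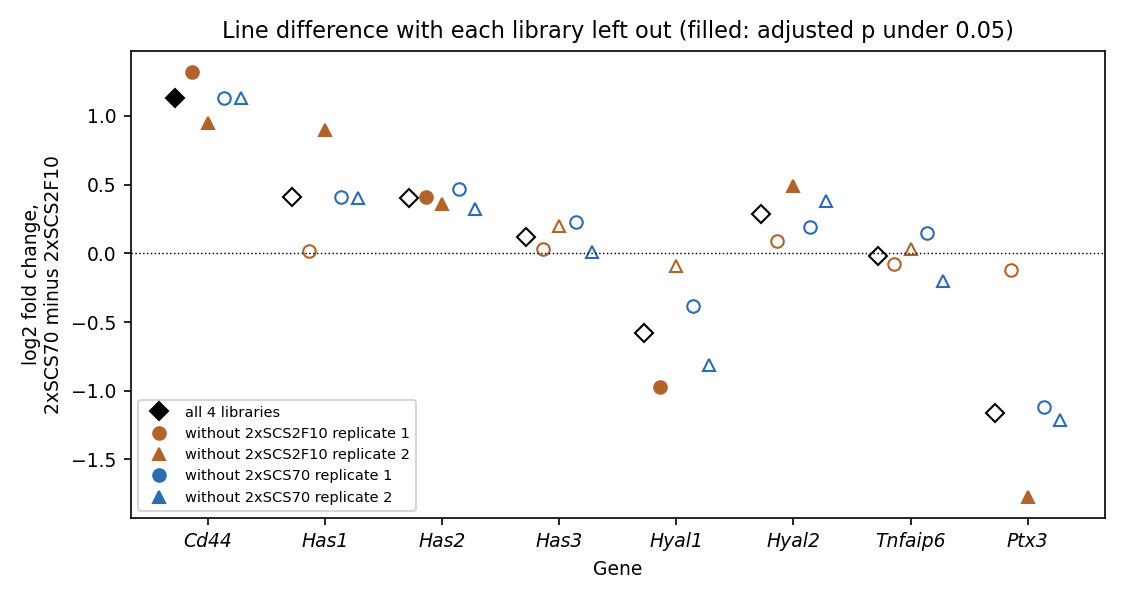
Log2 fold change, 2xSCS70 minus 2xSCS2F10, of 8 of the 9 genes (Vcan is off this scale) with all 4 libraries and with each left out, filled where the edgeR adjusted p was under 0.05. With a library left out, the remaining one of that line was assumed to vary like the other line. Cd44 stays near 1.13 but loses its call without either 2xSCS70 library, and Ptx3 is at -0.12 without 2xSCS2F10 replicate 1 and at -1.77 without its replicate 2.

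Within 2xSCS2F10 the order by mean RPKM was Ptx3, Vcan, Cd44, Hyal2, Tnfaip6, Has2, Has1, Hyal1 and Has3. The libraries of Hyal2 (8.98 and 9.84 RPKM) and Tnfaip6 (9.03 and 8.08 RPKM) overlapped there, as did those of Has1 (0.909 and 1.39 RPKM) and Hyal1 (0.674 and 1.03 RPKM), so these neighbours were not separated. Within 2xSCS70 the order was Ptx3, Cd44, Hyal2, Tnfaip6, Has2, Has1, Hyal1, Has3 and Vcan, with no overlap between neighbours. Apart from Vcan, which went from the second to the last place, the order of the genes was the same in both lines. Ptx3 led in 2xSCS70 at 53.7 and 51.6 RPKM and in 2xSCS2F10 at 166 and 43.9 RPKM.

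The 5 genes whose log2 CPM over the 4 libraries ran closest to that of Cd44, each centred on its own mean, were Pop4, Gpd2, Nsdhl, Ccdc21 and Pacsin3. Their Euclidean distances were between 0.036 and 0.071, among the 9193 genes tested that averaged 10 CPM or more. Pop4 encodes a subunit of RNase P, Gpd2 the mitochondrial glycerol-3-phosphate dehydrogenase and Nsdhl an enzyme of cholesterol synthesis. Of the other 8 hyaluronan genes Has2 lay nearest to Cd44, at 0.791, and Vcan farthest, at 8.044.

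The rest of the pathway was read from 7 lists of genes by role. The lists held 37 called genes, and with Has2as 38 genes outside the 9 were called in all. The number tested is given with each list below. As the lists were chosen with earlier results of these data known, no excess is read from these counts. Most of these 38 lost the call when either 2xSCS70 library was left out, as did most called genes over all tested genes. When either 2xSCS2F10 library was left out, none of the 38 lost it, and calls over all tested genes rose. The 8 called in all alternatives were Cemip, Mmp9, Ezr, Spp1, Ank3, Adamts5, Icam1 and Esrp2. Every other gene named as higher or lower below had an edgeR adjusted p over the threshold when either 2xSCS70 library was left out. Over all 14496 tested genes, 2727 (18.8%) were higher and 3161 (21.8%) lower, and limma on log2(RPKM + 1) gave 3218 and 1828.

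Of 7 other hyaluronan receptors, 6 were tested, 1 was higher, 1 was lower and 4 did not pass, with a median log2 difference of 0.68. Tlr2, a receptor of microbial products that also senses hyaluronan fragments, stood at 14.5 and 36.6 CPM in 2xSCS2F10 and at 84.3 and 91.0 CPM in 2xSCS70, 3.43-fold higher (edgeR, adjusted p = 0.0305). Its log2 fold change of 1.78 was 2.59 without 2xSCS2F10 replicate 2 and 1.25 without replicate 1. Layn, which encodes the membrane receptor layilin, was 3.23-fold lower, at 3.75 and 5.72 CPM against 1.45 and 1.48 CPM (edgeR, adjusted p = 0.0137). Hmmr, which encodes a hyaluronan-binding protein of the mitotic spindle, was looked at after its values were seen: 2xSCS2F10 replicate 2 had 25.8 CPM and the other 3 libraries 110.2 to 119 CPM. Its log2 difference of 0.68 did not pass the test (edgeR, adjusted p = 0.446) and was -0.03 without that library. Without 2xSCS2F10 replicate 1 it was 2.14. Lyve1, the receptor of lymphatic vessels, had 2 counts in each 2xSCS2F10 library and 0 in 2xSCS70.

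Of 10 other breakdown genes with a row, 6 were tested: 1 was higher, 2 were lower and 3 did not pass, with a median log2 difference of -0.50. Cemip, whose row carries the older name 9930013L23Rik, encodes a protein needed for hyaluronan depolymerisation by fibroblasts. It stood at 635 and 783 CPM in 2xSCS2F10, a mean of 709 ± 105, and at 17.2 and 17.6 CPM in 2xSCS70, a mean of 17.4 ± 0.282. Cemip was 40.7-fold lower in 2xSCS70, with a log2 fold change of -5.35 and an SE of 0.18 (edgeR, adjusted p = 0.000347). In 2xSCS2F10 Cemip (68.8 and 71.0 RPKM) lay above Hyal2 per length, and in 2xSCS70 (2.12 and 1.96 RPKM) below it. As with Vcan, both marker sums moved the same way, and their part was not tested.

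Tmem2, which encodes a cell-surface hyaluronidase related to Cemip, was 1.52-fold lower, at 105 and 132 CPM against 75.1 and 81.0 CPM (edgeR, adjusted p = 0.0341). With upper quartile scaling its adjusted p was 0.0502, and with limma on log2(RPKM + 1) 0.179. Gusb, which encodes the lysosomal enzyme that removes glucuronic acid from hyaluronan fragments, was 1.46-fold higher, at 68.3 and 71.7 CPM against 104 and 100.1 CPM (edgeR, adjusted p = 0.0186). Hexa, which encodes a lysosomal enzyme subunit, had a log2 difference of -0.49 and did not pass (edgeR, adjusted p = 0.247). Hyal4, Hyal5, Hyal6 and Spam1, most of them known from testis, had 0 counts in all libraries.

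Of 15 other hyaluronan-binding matrix genes only 6 were tested, of which 2 were higher, 1 was lower and 3 did not pass (median log2 difference -0.18). Itih2, which encodes a heavy chain of inter-alpha-inhibitor, the substrate of TSG-6, was 8.69-fold lower in 2xSCS70, at 40.2 and 22.9 CPM against 3.85 and 3.41 CPM (edgeR, adjusted p = 0.00309), in the direction of the mesothelial and smooth muscle marker sums, whose part was not tested. Itih1 had 8 counts in 1 library and 0 in the others, and Itih3 at most 18 counts. Hapln4, a link protein that ties proteoglycans to hyaluronan, was 3.55-fold higher, at 2.31 and 4.15 CPM against 12.4 and 10.5 CPM (edgeR, adjusted p = 0.0132). Habp4, whose product binds hyaluronan and RNA inside the cell, was 1.41-fold higher, at 21.5 and 21.9 CPM against 32.0 and 29.1 CPM (edgeR, adjusted p = 0.0364), and was not called with the replicate number as a block (adjusted p = 0.0715). Hapln1, the link protein of cartilage and of versican complexes, had 4 and 8 counts in 2xSCS2F10 and 0 in 2xSCS70, too few to be tested.

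Of the 7 enzymes that supply the synthases with sugar nucleotides, 2 were higher, 4 were lower and 1 did not pass, with a median log2 difference of -0.49. Gfpt1 and Gfpt2 encode the entry enzyme of the hexosamine pathway and differed in opposite directions. Gfpt1 was 1.70-fold lower in 2xSCS70, at 292 and 331 CPM against 182 and 185 CPM (edgeR, adjusted p = 0.00961). Gfpt2 was 3.39-fold higher, at 12.2 and 24.6 CPM against 65.8 and 58.7 CPM (edgeR, adjusted p = 0.0163), and its log2 fold change of 1.76 was 2.35 without 2xSCS2F10 replicate 2 and 1.33 without replicate 1. Gnpnat1, the next step of that pathway, was 1.62-fold lower (60.4 and 53.0 CPM against 34.3 and 35.6 CPM, edgeR adjusted p = 0.0144), and Uap1, the last step to UDP-N-acetylglucosamine, was 1.44-fold higher (57.1 and 58.0 CPM against 83.0 and 83.2 CPM, edgeR adjusted p = 0.0193). Pgm3 (log2 -0.49, edgeR adjusted p = 0.0483) and Ugp2 (log2 -0.58, edgeR adjusted p = 0.0257) were the other 2 called lower. The Pgm3 call was lost with the replicate number as a block (adjusted p = 0.0695), with no filter (0.0625), with the 5 CPM filter (0.063) and with upper quartile scaling (0.0781). Ugdh, which makes UDP-glucuronic acid, had a log2 difference of 0.05. With limma on log2(RPKM + 1), 0 of the 7 were called lower: Gfpt1 then had an adjusted p of 0.0551 and Gnpnat1 of 0.153.

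**Figure D5:**
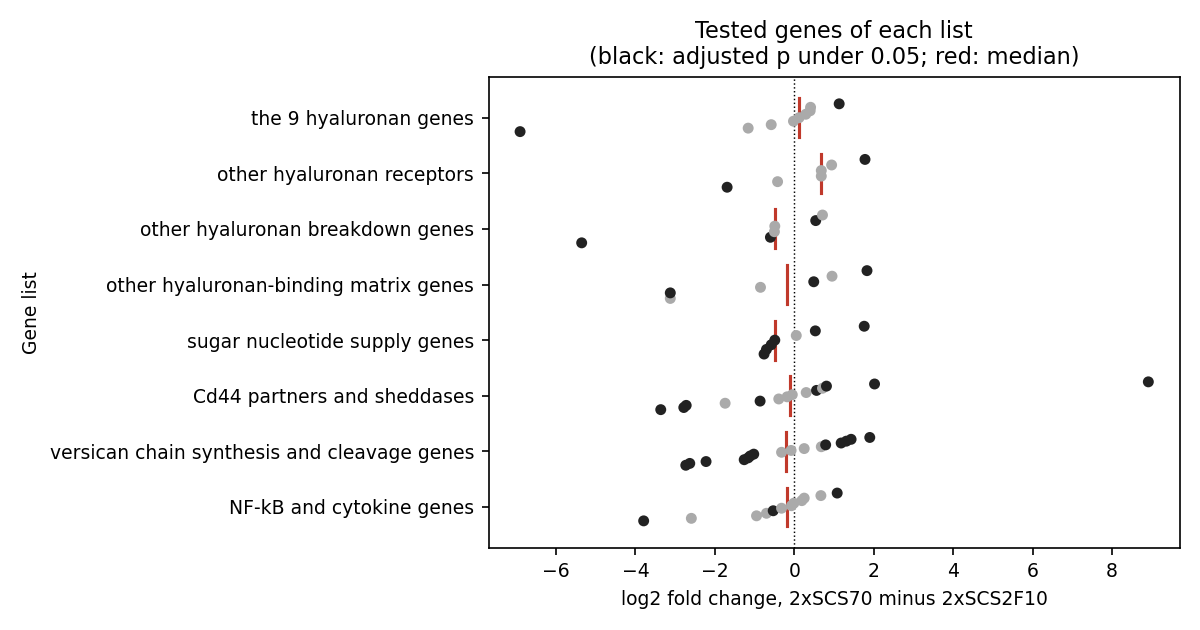
Log2 fold change, 2xSCS70 minus 2xSCS2F10, of the tested genes of each list (points), black where the edgeR adjusted p was under 0.05, with the median of the list in red. Medians run from -0.50 for the other breakdown genes to 0.68 for the other receptors, and genes of most lists lie on both sides of 0.

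Of 15 partners, sheddases and splicing factors of Cd44, 14 were tested, 4 were higher, 4 were lower and 6 did not pass (median log2 difference -0.12). Ezr, Rdx and Msn encode ezrin, radixin and moesin, which tie the Cd44 tail to actin. Ezr was 10.3-fold lower in 2xSCS70, at 1339.7 and 1483 CPM against 140.4 and 134 CPM (edgeR, adjusted p = 0.00049). Rdx was 1.48-fold higher, at 215 and 189 CPM against 292 and 306 CPM (edgeR, adjusted p = 0.0227). Msn, looked at after its values were seen, had 564 and 865 CPM against 1176 and 1161 CPM and missed the threshold (edgeR, adjusted p = 0.0658). It passed with DESeq2 (adjusted p = 0.0255), with upper quartile scaling (0.0448) and with limma on log2(RPKM + 1) or log2(RPKM + 0.1). It did not pass with RLE scaling, no filter, the 5 CPM filter, halved counts, the replicate number as a block or limma-voom. Per length Ezr led the 3 in 2xSCS2F10 (337 and 312 RPKM against 113 and 145 RPKM for Msn), and Msn led in 2xSCS70 (268 and 239 RPKM against 40.1 and 34.6 RPKM for Ezr).

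Mmp9, a gelatinase that docks on Cd44, had 3 fragments in the 2xSCS2F10 libraries together and 2013 in those of 2xSCS70. Scaled, this was a ratio of 498, with an exact 95% counting interval from 170.2 to 2417. The log2 fold change fitted by edgeR was 8.91 (edgeR, adjusted p = 0.000347). Spp1, the gene of the Cd44 ligand osteopontin, was 6.87-fold lower, at 279.7 and 364 CPM against 47.2 and 46.4 CPM (edgeR, adjusted p = 0.000889). Ank3, an ankyrin that links membrane proteins to spectrin, was 4.07-fold higher, at 14.5 and 16.0 CPM against 60.3 and 63.8 CPM (edgeR, adjusted p = 0.001). Esrp2, an epithelial regulator of Cd44 splicing, was 6.60-fold lower, at 29.2 and 38.9 CPM against 5.30 and 5.01 CPM (edgeR, adjusted p = 0.00131), while its paralog Esrp1 had at most 8 counts in a library. Ezr, Esrp2 and Spp1 moved in the direction of the mesothelial and smooth muscle marker sums given above. Mmp9 moved in that of the leukocyte markers Lyz2 and Cd68, but not of the whole leukocyte list. There Csf1r was lower in 2xSCS70 without passing (log2 -1.24, edgeR adjusted p = 0.0626), and Cd14 differed little (log2 0.11, edgeR adjusted p = 0.816). The part of these markers was not tested.

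Of 19 genes that build or cut the chondroitin sulfate chains and core of versican, 16 were tested, 5 were higher, 7 were lower and 4 did not pass (median log2 difference -0.20). The 3 versican-cutting proteases Adamts1, Adamts5 and Adamts9 were lower in 2xSCS70, as Vcan was, and as the mesothelial (3586 and 4181 CPM against 117 and 106 CPM) and smooth muscle marker sums were, whose part was not tested. Adamts5 went from 616 and 425 CPM to 82.2 and 75.0 CPM, 6.62-fold lower (edgeR, adjusted p = 0.00163). Adamts1 stood at 1165 and 739 CPM against 154 CPM in both 2xSCS70 libraries, 6.18-fold lower (edgeR, adjusted p = 0.00256), and Adamts9 at 62.1 and 93.7 CPM against 16.0 and 17.5 CPM, 4.65-fold lower (edgeR, adjusted p = 0.00323). Adamts4, another such protease, did not pass: 2xSCS2F10 replicate 1 had 428 counts and the other 3 libraries 2564 to 3530. Xylt2, which starts the sugar chain on the core protein, was 2.70-fold higher, at 9.09 and 8.87 CPM against 24.9 and 23.5 CPM (edgeR, adjusted p = 0.00281). The other 8 called genes of this list make or sulfate the chain, with 4 higher by 1.73-fold to 3.73-fold (Xylt1, Chsy1, Chpf and Chst11) and 4 lower by 2.03-fold to 2.39-fold (Csgalnact2, Chpf2, Chst12 and Chst15).

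NF-kB and cytokine genes were included because inflammatory cytokines are known inducers of Tnfaip6 and Ptx3. Of 15, 12 were tested, 1 was higher, 2 were lower and 9 did not pass (median log2 difference -0.19). Il1a, Il1b and Tnf had at most 6 counts in any library and were not tested. Icam1, an adhesion molecule, was 13.8-fold lower in 2xSCS70, at 158 and 244 CPM against 15.7 and 13.4 CPM (edgeR, adjusted p = 0.00117), and Tnfrsf1a, the main tumour necrosis factor receptor, was 1.45-fold lower, at 120.1 and 121 CPM against 84.4 and 82.2 CPM (edgeR, adjusted p = 0.0175). Icam1 too moved with the mesothelial and smooth muscle marker sums, and their part was not tested. Nfkbia, which encodes the inhibitor of NF-kB, was 2.12-fold higher, at 20.7 and 32.1 CPM against 59.4 and 52.5 CPM (edgeR, adjusted p = 0.0222). Il6 and Ptgs2, looked at after their values were seen, were highest in 2xSCS2F10 replicate 2, where Ptx3 stood at 131 CPM. Il6 had 1.75 and 22.9 CPM against 2.14 and 1.93 CPM, and Ptgs2 had 363 and 797 CPM against 309.7 and 293 CPM. Neither passed the test (edgeR, adjusted p = 0.126 and 0.102). Without 2xSCS2F10 replicate 2 the log2 difference of Il6 was 0.22, and without replicate 1 it was -3.50. That of Ptgs2 was -1.42 without 2xSCS2F10 replicate 1 and -0.27 without replicate 2, and Ptgs2 passed with DESeq2 (adjusted p = 0.0283).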

How the data were processed

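Polyadenylated RNA of 2 cell lines was sequenced, 2 libraries each, from total RNA (Qiagen miRNeasy) and an Illumina TruSeq mRNA kit, per the labels' protocols. Such a kit does not mark strand. The submitters' processing notes name TopHat2 2.0.6, Bowtie and HTSeq, and the build mm10. The counting annotation: not given in the sources used here. For every gene the deposited tables hold raw counts and RPKM, per the file headers, both made by the authors. RPKM relates counts to coding length and to 50468212 and 59036269 reads (2xSCS2F10) or 62928743 and 61554553 reads (2xSCS70). All counts were even, so 1 fragment was taken as 2 counts. In the tables of replicate 1, 25 gene names turned into dates were restored from replicate 2, and 69 rows share a name with another row.

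Lines were compared with edgeR 4.0.16 (R 4.3.3) on the counts as deposited, by the quasi-likelihood test with TMM scaling, the filterByExpr filter (14496 genes tested, 8862 not) and Benjamini-Hochberg adjustment at 0.05. CPM use the TMM factors (log2 CPM: prior count 2). Each SE was obtained as |log2 fold change| / sqrt(F). The common biological coefficient of variation was 20.4%. At these depths 3 fragments equal 0.109 to 0.157 CPM. Counting intervals are exact Poisson or binomial 95% intervals on fragments and cover counting error only. Genes are called higher or lower at an adjusted p under 0.05.

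The 9 genes, the lists, the rules and the motifs were chosen with earlier results of these data known. Named are all 9, up to 4 called genes of each list by adjusted p, and the 5 genes most like Cd44. Other named genes were chosen after their values were seen. The 14 alternatives were upper quartile and RLE scaling, no filter, a mean of at least 5 CPM, halved counts, each library left out, the replicate number as a block, DESeq2 1.42.0, limma-voom (limma 3.58.1), and limma on log2(RPKM + 1) and log2(RPKM + 0.1). With 1 library left out, the lone one was assumed to vary like the other line. Simulated counts were used to check the test. Some listed genes are counted but not reported here by name. Promoter letters are from RefSeq. Protein sequences were not used here.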

Additional observations from a re-analysis of the deposited data

How the results depend on the processing

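With 2 libraries a line, leaving out 1 library moved calls most. Over all genes, 291 were higher and 559 lower without 2xSCS70 replicate 1, 316 and 573 without its replicate 2, 4772 and 4795 without 2xSCS2F10 replicate 1, and 4379 and 4578 without its replicate 2. A filter at a mean of 5 CPM gave 1904 and 2220. The median over all genes moved from 0.02 to 0.11 with upper quartile scaling, 0.15 with log2(RPKM + 1) and 0.25 with log2(RPKM + 0.1). The replicate numbers correlated between lines at r = 0.0539 over genes, with only 2 pairs, and were not taken as pairs. Whether a number marks a shared batch is not settled by this, and the tables of replicate 1 differ from those of replicate 2 in how gene names were stored. The replicate block gave 2381 higher and 2841 lower genes and changed no call among the 9 genes. Among other genes it took the call from 4, leaving 1 binding-matrix gene called higher, and log2(RPKM + 1) also left 1.

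Of the 9 genes, 0 to 4 were called higher and 1 to 2 lower with a library left out, and DESeq2 called 2 lower. The log2 difference of Tnfaip6 was 0.07 with upper quartile scaling, 0.02 with the 5 CPM filter, 0.19 with log2(RPKM + 1), 0.21 with log2(RPKM + 0.1), and -0.20 to 0.15 with a library left out. That of Hmmr ranged from -0.03 to 2.14 and that of Il6 from -3.50 to 0.22. With a library left out, receptors called higher numbered 0 to 3 and lower 0 to 2, breakdown genes 0 to 2 and 1 to 4, binding-matrix genes 0 to 2 and 0 to 3, sugar nucleotide genes 0 to 2 and 0 to 4, Cd44 partners 2 to 6 and 3 to 6, versican chain and cleavage genes 0 to 7 and 1 to 8, and NF-kB and cytokine genes 0 to 7 and 1 to 9. Receptors called lower numbered 0 with the 5 CPM filter, because Layn was no longer tested. Breakdown genes called lower numbered 1 with upper quartile scaling and 1 with either RPKM setting. Sugar nucleotide genes called lower numbered 0 with either RPKM setting. NF-kB and cytokine genes called higher numbered 2 and lower 1 with either RPKM setting, and called lower 4 with DESeq2. Except where fewer libraries or genes were tested, the cause was not tested. Has1, Has3 and Hyal1 rest on 37 to 127 fragments a library.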
